A study of Homo sapiens with 4 samples.

Results

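The hnRNP and SR splicing factor genes are 40 protein-coding genes chosen by name, 25 of the hnRNP class and 15 of the SR class, and they were followed here among the RNAs bound by IGF2BP2. A peak counted for a gene when it was listed under that gene's identifier and its main region was not antisense or intergenic. Of the 40 genes, 36 had such a sense peak in both IGF2BP2 libraries, against 8830 of all 20033 protein-coding genes of the reference table. This count includes SRSF1 through an identifier that may belong to an overlapping gene, and without that identifier 35 genes had one. With it, the 40 genes held 349 of the 58791 sense peaks of named coding genes in replicate 1. In replicate 2 they held 391 of 63705.

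The measurements come from Jurkat cells, a human leukemic cell line of T-cell origin. An improved RNA immunoprecipitation (iRIP-seq, in which RNA crosslinked to a protein by UV light is pulled down with it and sequenced) was made with anti-IGF2BP2 in 2 libraries, beside 2 input libraries that are not analysed here. Neither group carries a further treatment or genotype in the labels, and the labels do not say whether the replicates were separate cultures, so the spread between them may be technical. For each peak the deposited lists give its coordinates and strand, how tall it was in tags, the authors' p-value, the gene regions it covers and an identifier.

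IGF2BP2 is an RNA-binding protein of the IGF2 mRNA-binding family and a reader of N6-methyladenosine (m6A), a methyl mark on mRNA that is often laid in GGAC sequences. The hnRNP proteins coat nascent RNA and many of them repress exons, whereas SR proteins bind exonic enhancers and recruit the spliceosome. Many hnRNP and SR genes limit their own expression through alternative exons with premature stop codons, so their transcripts are read, spliced and degraded under the control of the proteins they encode. The peak lists hold no measure of RNA abundance, so the amount of an RNA and the share of it that was bound cannot be told apart in any value below.

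Sequence was at hand only around the starts of RefSeq transcripts (GRCh38.p14), and peaks over the first 50 transcribed bases are therefore shown. At the starts, any sense peak on the gene's strand counted, whatever its identifier. A peak lay there in both libraries for 11 of the 37 members in the RefSeq start table, with 2.0% of the 15842 coding genes in that table as the background. For 10 of them the peaks were under the gene's own identifier. The other was PCBP2, whose start peaks of 4 and 7 tags were listed under an overlapping identifier and had no base in common. The stretches below lie under the peaks of both libraries. They were chosen because PCBP1, PTBP1, HNRNPA3 and HNRNPK had the highest of these peaks in the hnRNP class and because SRRM1, SRSF3 and SRSF6 are the SR genes whose stretch holds GGAC. They run from 5′ to 3′ on the strand of the gene, and capitals mark GGAN, the letters searched for, which include GGAC.
PCBP1: tcgccaccgccgcgccctcgcccacc
PTBP1: attccggcgcctccactccgtcccccgcgg
HNRNPA3: ctcaaaatGGAGgtaaaaccgccgcccggt
HNRNPK: cggctgaggcggcgcggcagcGGAGGGACg
SRRM1: gaggcggcaagatGGACgcgGGATttttcc
SRSF3: ccgccatttcgtGGACgccgggtgagtgag
SRSF6: gtggctGGACtcggccgcccctgtggtgtg
The PCBP1 stretch is chr2:70087501-70087526 on the plus strand, and the peak over it, in the 5′ UTR, reached 17.5 and 18.5 tags in replicates 1 and 2. The PTBP1 stretch is chr19:797452-797481 on the plus strand and lay under 5′ UTR peaks of 10 and 12 tags. The HNRNPA3 stretch, chr2:177212794-177212823 on the plus strand, was under peaks of 12.5 and 9.67 tags that the authors' annotation put mainly in coding sequence (CDS). The HNRNPK stretch, chr9:83980166-83980195 on the minus strand, was under 5′ UTR peaks of 6 and 11 tags.

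Among the SR genes the peaks at the start were lower in replicate 1 than in replicate 2. SRRM1, at chr1:24643316-24643345 on the plus strand, had 4 and 5 tags. SRSF3, at chr6:36594362-36594391 on the plus strand, had 6.6 and 7.5 tags. SRSF6, at chr20:43457901-43457930 on the plus strand, had 6 and 12 tags. By the lower of both heights, PCBP1 and PTBP1 had the highest peaks of this set, and their printed stretches hold no GGAN.

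On the transcribed strand, GGAC stood in the first 50 bases of 4 of the 11 member starts with a peak in both libraries and of 14 of all 54 starts of members. It stood in 19.8% of the 22198 starts of all coding genes and in 19.0% of the 336 of those starts with a peak in both libraries. GGAN stood in 8 of the 11 member starts with a peak and in 43 of all 54 starts of members, in 66.8% of the starts of all coding genes and in 67.3% of those with a peak. A match describes letters and is not a binding site, and sequence inside the other peaks was not used here.

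Most members were represented in both libraries. A sense peak in both was found for 21 of the 25 hnRNP genes and for 15 of the 15 SR genes, and the background over all coding genes was 44.1%. A peak that reached 10 tags was found in both libraries for 18 members, 12 hnRNP and 6 SR genes, against 3.76% of all coding genes. Counted library by library, 18 members had such a peak in replicate 1 and 30 in replicate 2, beside 4.30% and 9.88% of all coding genes. A peak position shared by both libraries, that is a replicate 1 peak overlapped by at least 1 bp by a replicate 2 peak of the same gene and strand, was found for 34 members, against 15% of all coding genes. A CDS peak in both libraries was found for 31 members, against 16.9%. These shares are descriptions without a test. They count SRSF1 through an identifier that may belong to an overlapping gene. With that identifier left out, a choice made after the data were seen, 35 members, 14 of them SR genes, had a sense peak in both libraries, and 17 members reached 10 tags in both.

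The number of sense peaks per member ran from 0 to 36 in replicate 1 and from 0 to 31 in replicate 2, with medians of 7.5 and 9. Over all coding genes the median was 1 in each library. Per kb of the gene interval, introns included, the median member had 0.449 and 0.521 peaks, and the median coding gene 0.0149 and 0.0107. The member intervals were shorter, with a median length of 15419.5 nt against 24130 nt. The 2 libraries ranked the members alike in peak number, with Pearson's r = 0.92 and Spearman's rho = 0.90 over the 40 genes, which share their 2 libraries and are not replicates. Peak number followed gene length only weakly over the 36 members with peaks, with r = 0.13 and rho = 0.33.

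**Figure D1:**
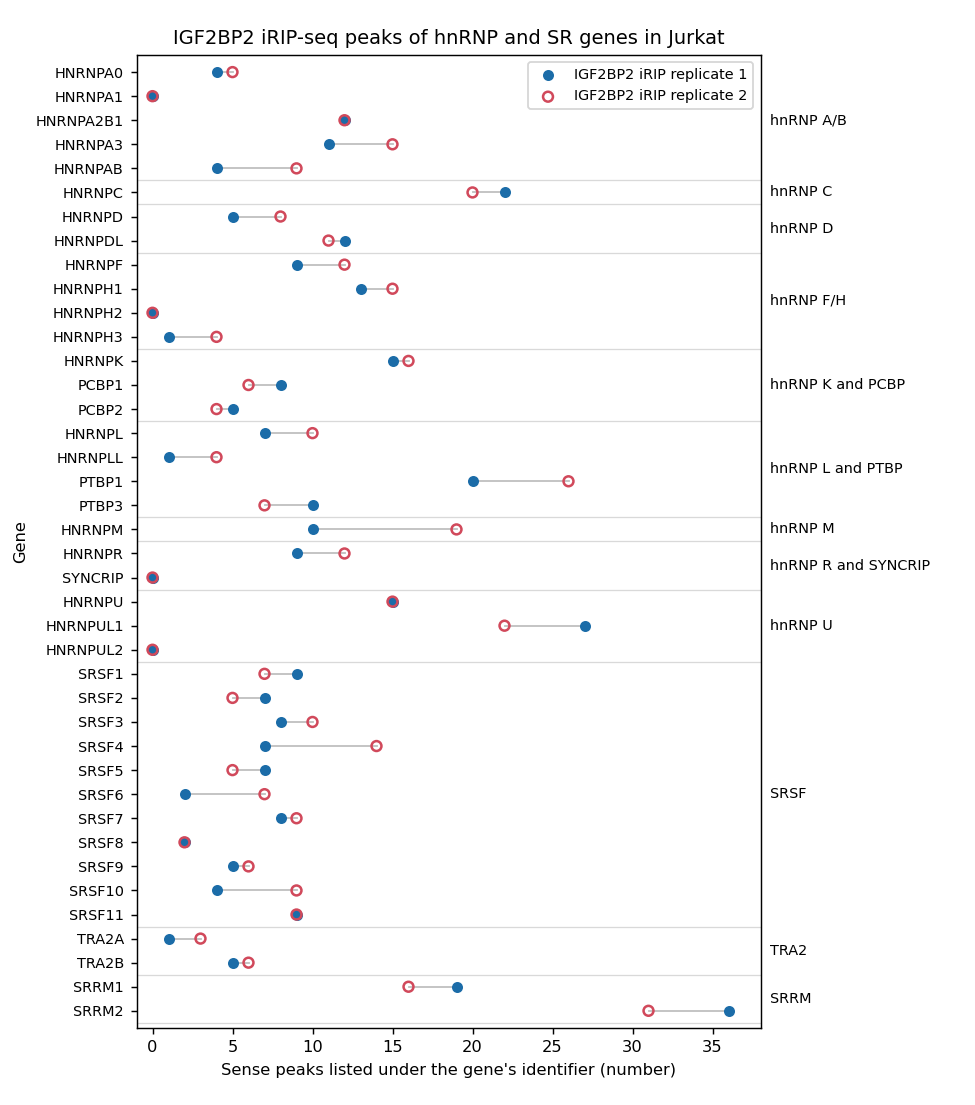
Number of sense peaks listed under each of the 40 genes (x axis), with filled points for IGF2BP2 iRIP replicate 1 and open points for replicate 2, and genes grouped by family. SRRM2 stands farthest right with 36 and 31 peaks, and 4 hnRNP genes stand at 0 in both libraries.

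Shared peaks were ranked by the lower of both heights, so a peak called the highest shared peak need not be the tallest in either library. The hnRNP class held the highest shared peak and 8 of the 12 highest, beside 20 of the 34 members with a shared position. HNRNPM, a regulator of alternative exons, had 10 and 19 sense peaks in replicates 1 and 2, and its CDS peak at chr19:8455400-8455450 (GRCh38, plus strand, positions as in the files) had 33 and 38 tags, the highest shared peak of any member. Only 17 named coding genes had a higher top peak in replicate 1, and 51 in replicate 2. Its other 5 shared peaks also lay in CDS and were lower, from 4 to 8 tags in replicate 1 and from 5 to 16 in replicate 2. A CDS peak of 17 tags and an intron peak of 17 tags were seen in replicate 2 alone.

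HNRNPK, a KH-domain protein that binds C-rich RNA, had 15 and 16 peaks. Its highest shared peak, in CDS at chr9:83973900-83973950 on the minus strand, had 19 and 18 tags. A 5′ UTR peak at chr9:83978350-83978400 was nearly as high, with 16 and 18 tags. PCBP1, a poly(C)-binding relative of HNRNPK, had 8 and 6 peaks in a gene of 1727 nt, which is 4.63 and 3.47 peaks per kb, the densest of all members, and its highest shared peak was the 5′ UTR peak over the stretch printed above. PCBP2 had 5 and 4 peaks under its own identifier, the highest shared peak being a CDS peak of 8 and 18 tags.

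HNRNPUL1, a nuclear RNA-binding protein related to HNRNPU, had 27 and 22 peaks, the most of any hnRNP gene over both libraries. Of these, 18 replicate 1 peaks were overlapped by a replicate 2 peak. The highest shared peak lay in CDS at chr19:41294550-41294600 on the plus strand with 22 tags in replicate 1, and the overlapping replicate 2 peak had 16.5 tags. HNRNPU, the scaffold attachment factor, had 15 peaks in each library, and its highest shared peak had 9 and 12.5 tags. A CDS peak of 32 tags in HNRNPU had no partner in replicate 1, and an intron peak of 16 tags had none in replicate 2.

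PTBP1, the polypyrimidine tract-binding repressor of exons, had 20 and 26 peaks, and 14 of its replicate 1 peaks were overlapped. Its highest shared peak was in CDS at chr19:805000-805050 on the plus strand, with 16 and 22 tags. HNRNPL, which binds CA repeats, had 7 and 10 peaks under its own identifier, with 11.5 and 29 tags at the highest shared position. The same position was CDS in replicate 1 and mainly intron in replicate 2, since the peak was shorter there. PTBP3 had 10 and 7 peaks and HNRNPLL 1 and 4, with no height above 9 tags.

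**Figure D2:**
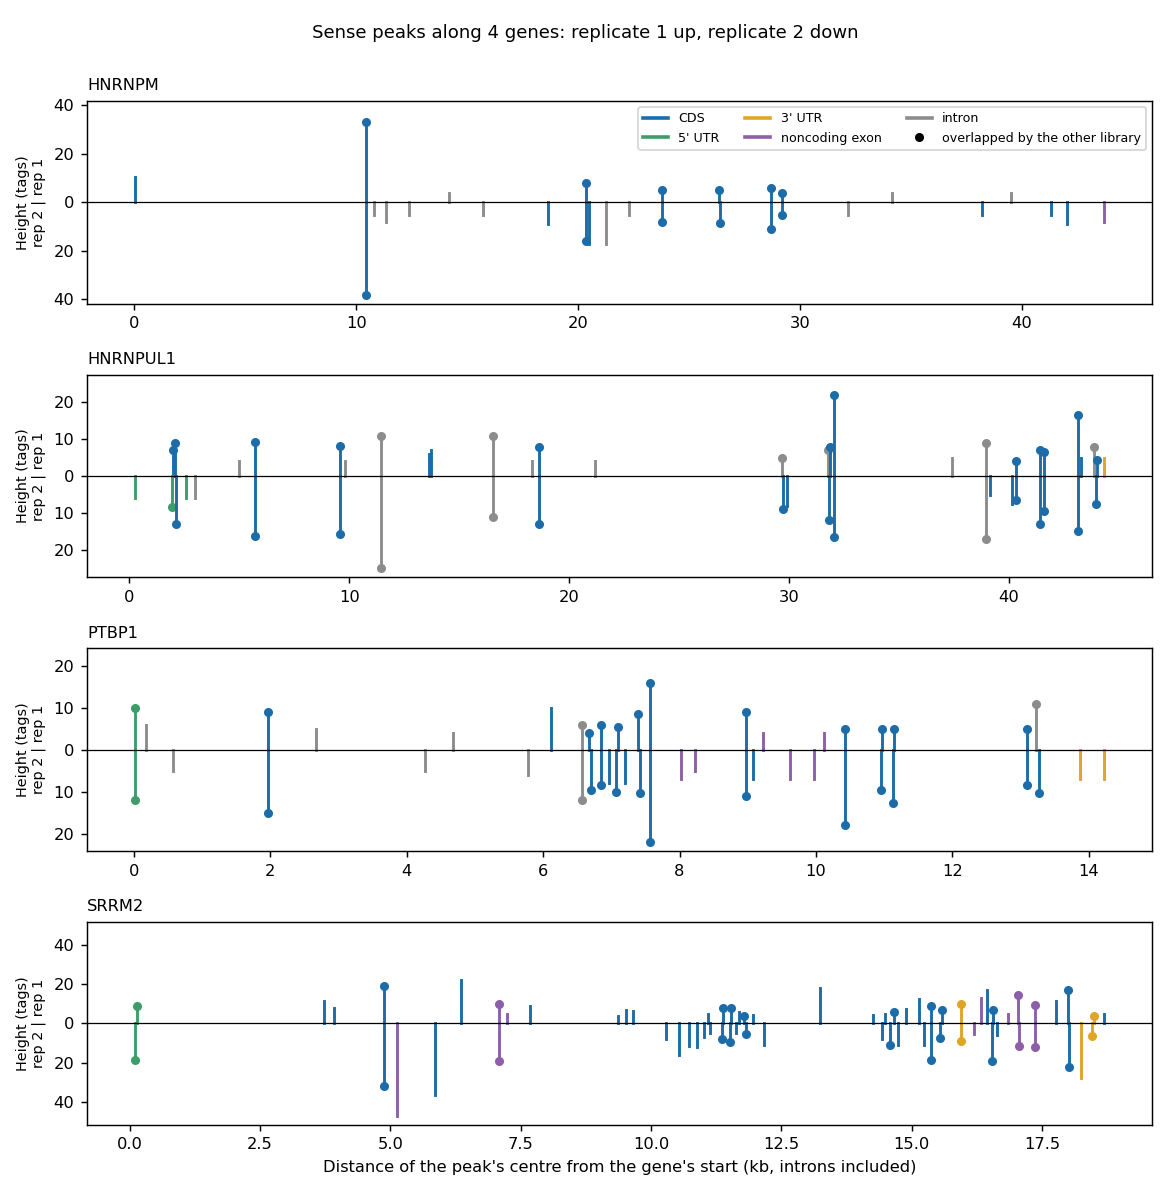
Sense peaks of HNRNPM, HNRNPUL1, PTBP1 and SRRM2 by distance of the centre from the gene's start (x axis, kb, introns included) and height in tags (y axis, replicate 1 upwards, replicate 2 downwards), coloured by main region, with dots on peaks that the other library overlapped. The CDS peak of HNRNPM with 33 and 38 tags, 10450 nt from the gene's start, is the tallest of that gene in both libraries. The shared peaks of HNRNPUL1 and PTBP1 are spread along the gene.

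HNRNPA3, a protein of the A/B family that packages nascent RNA, had 11 and 15 peaks, and all 11 replicate 1 peaks were overlapped by a replicate 2 peak. The highest shared peak, at chr2:177219200-177219250 on the plus strand, had 14 tags and was mainly intron in replicate 1. The longer replicate 2 peak there had 13 tags and was mainly CDS. Another shared peak, at chr2:177215500-177215550, was taller in replicate 1, with 22 tags, and had 12.7 tags in replicate 2. HNRNPA2B1, which is known as a candidate nuclear m6A reader, had 12 peaks in each library and none with CDS as the main region. Its highest shared peak, in a noncoding exon, had 7.5 and 9 tags. HNRNPA0 had 4 and 5 peaks, all 4 of the first being overlapped, and HNRNPAB had 4 and 9.

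HNRNPF, which binds G tracts, had 9 and 12 peaks, and 1 of them stood out, a 5′ UTR peak at chr10:43396450-43396500 on the minus strand with 12 and 26 tags. HNRNPH1, its close relative, had 13 and 15 peaks, with a highest shared peak of 7 and 11.5 tags in CDS at chr5:179623000-179623150 on the minus strand. HNRNPH3 had 1 and 4 peaks without any shared position.

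HNRNPC, which binds U tracts, had 22 and 20 peaks, of which 12 and 11 were intronic. Only 1 of its intron peaks in replicate 1 was overlapped in replicate 2, and its highest shared peak, in CDS, had 9 and 8 tags. Another shared CDS peak, at chr14:21230300-21230350 on the minus strand, had 7 and 25 tags. HNRNPDL, of the AU-rich element-binding D family, had 12 and 11 peaks with 11 and 10 tags at the highest shared position, and HNRNPD had 5 and 8 peaks with 9 and 8 tags there. HNRNPR had 9 and 12 peaks, and its highest shared peak lay in CDS at chr1:23337750-23337800 on the minus strand with 12 and 13 tags.

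The SR class was led by SRRM2, the large serine and arginine-rich scaffold protein of nuclear speckles. SRRM2 had 36 and 31 sense peaks, the most of any member, and 27 and 22 of them were CDS peaks. Its highest shared peak, in CDS at chr16:2757450-2757600 on the plus strand, had 19 and 31.7 tags. The tallest SRRM2 peaks of each library were not shared. They had 22 tags in CDS in replicate 1 and 47 tags in a noncoding exon in replicate 2, at chr16:2757750-2757800, and only 15 of the 36 replicate 1 peaks were overlapped. SRRM1, a splicing coactivator, had 19 and 16 peaks, and its highest shared peak, of 12 and 15 tags at chr1:24671350-24671400 on the plus strand, was mainly intron with 30% of its length in CDS.

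Each of the 11 SRSF genes had at least 2 peaks in each library, if the doubtful identifier of SRSF1 is taken as its own. SRSF11 had 9 peaks in both and a CDS peak at chr1:70250350-70250400 on the plus strand of 19 tags in replicate 1, overlapped by a replicate 2 peak of 13 tags. SRSF2, a classical SR protein that marks nuclear speckles, had 7 and 5 peaks and a shared CDS peak at chr17:76736850-76736900 on the minus strand of 12 and 13 tags. SRSF4 had the most peaks of the family over both libraries, 7 and 14, but its highest shared peak had only 5 and 8 tags. SRSF3 had 8 and 10 peaks and SRSF7 8 and 9. SRSF8 had the fewest, 2 in each library.

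The peaks named SRSF1 numbered 9 and 7. All were listed under 1 identifier, matched by position as for the other members, which may be that of an overlapping gene, as was seen for HNRNPA1, HNRNPUL2 and SYNCRIP. The highest shared position had 10 and 26 tags and was mainly intron. SRSF5 had 7 and 5 peaks, SRSF6 2 and 7, SRSF9 5 and 6, and SRSF10 4 and 9, and none of these 4 genes reached 10 tags in replicate 1, although all did in replicate 2. Heights are not adjusted for depth, and over all listed peaks 1.68% in replicate 1 and 5.97% in replicate 2 reached 10 tags.

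TRA2B, an SR-like activator of exons, had 5 and 6 peaks, and 3 of its replicate 1 peaks were overlapped by a replicate 2 peak. TRA2A, its paralog, had 1 and 3 peaks, of 5 tags in replicate 1 and up to 10 tags in replicate 2, and no shared position. Neither library had a CDS peak in TRA2A.

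Shared positions were mostly taller in replicate 2. Of the 183 replicate 1 peaks of members overlapped by a replicate 2 peak, 144 were higher in replicate 2, 29 were higher in replicate 1 and 10 were equal. The medians were 7 and 9.5 tags. Over all named coding genes, 78.1% of the 11616 overlapped peaks were higher in replicate 2, beside 78.7% of the members'. The highest peak per member correlated with r = 0.66 and rho = 0.63 between the libraries over 36 genes, less than peak number did.

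**Figure D3:**
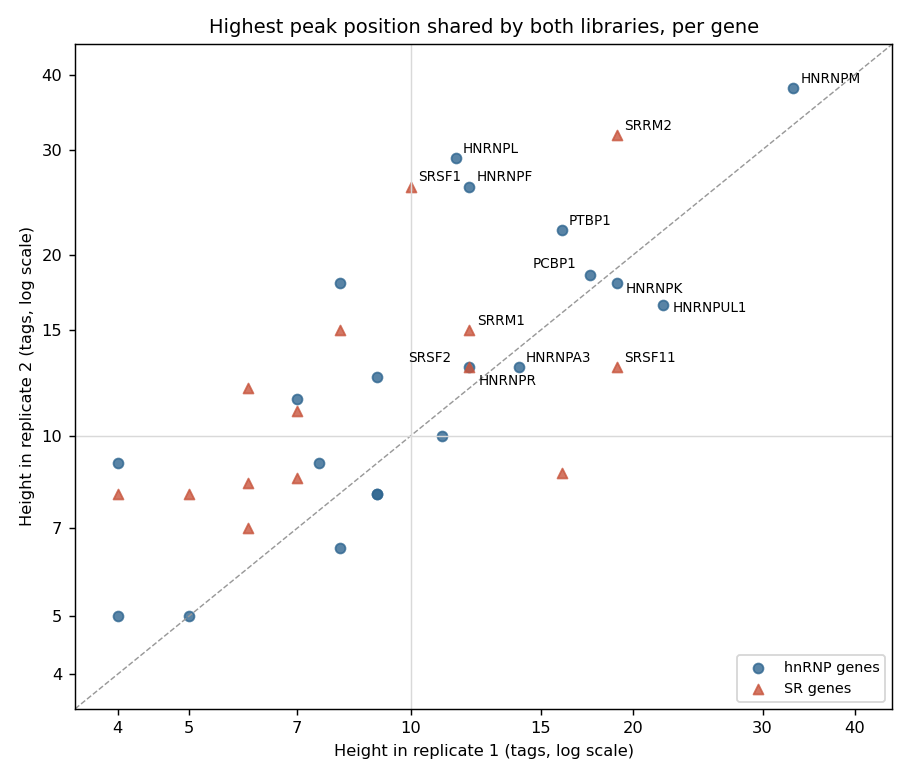
Highest shared peak position of each of the 34 members that had one, by its height in replicate 1 (x axis) and replicate 2 (y axis), in tags on log scales, with circles for hnRNP genes and triangles for SR genes, a dashed line of equal height and grey lines at 10 tags. Highest is meant by the lower of both heights. HNRNPM lies at 33 and 38 tags, and most points lie above the dashed line.

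The remaining hnRNP genes, 4 in number, had no sense peak under an identifier of their own. HNRNPA1, an abundant repressor of exons, had no identifier of its own in the lists, and 9 and 5 peaks lay in its interval on its strand under another identifier that listed all of them as introns. The tallest had 50 tags in each library, at chr12:54282050-54282100 in replicate 1 and at chr12:54284250-54284300 in replicate 2, and these positions did not overlap. HNRNPUL2 had 11 and 16 peaks under an overlapping identifier, 8 and 12 of them CDS, and the highest shared peak, at chr11:62726600-62726650 on the minus strand, had 10 and 31 tags. SYNCRIP, the relative of HNRNPR, had 7 and 3 peaks of at most 5 and 6 tags under an overlapping identifier, none shared. HNRNPH2 had no sense peak in its interval in either library.

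Counted by position, whatever the identifier, 39 members had a sense peak in both libraries and 21 reached 10 tags in both. HNRNPL then gained 7 peaks in each library, and PCBP2 gained 10 and 11, of up to 19 and 31 tags. This way of counting was chosen after the data were seen. All coding genes were not counted in this way, so no background share stands beside these counts.

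Coding sequence took the largest part of the members' peaks. CDS was the main region of 177 of 349 peaks in replicate 1 and of 208 of 391 in replicate 2, 52.0% ± 1.75 (SD, n = 2), against 27.5% ± 4.08 over all named coding genes. Introns took 93 and 94 peaks, 25.3% ± 1.84, against 61.1% ± 4.79. The 5′ UTR share was 8.5% ± 0.273 against 3.61% ± 0.356, the 3′ UTR share 6.75% ± 0.223 against 4.46% ± 0.175, and the share of noncoding exons, exons of noncoding transcripts in the authors' annotation, 7.45% ± 0.407 against 3.28% ± 0.181. Among the members, the CDS share was 50.7% (95% Wilson interval 45.5 to 55.9) in replicate 1 and 53.2% (48.2 to 58.1) in replicate 2. This difference of 2.48 percentage points had p = 0.508 in a two-sided Fisher's exact test between the libraries, which compares 2 libraries and not conditions. The test takes the 2 lists as independent, although 183 of the 349 replicate 1 peaks were overlapped by a replicate 2 peak. With a minimum of 5 tags in both lists the difference turned to -4.79 percentage points (p = 0.248 in the same exact test).

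Among tall peaks the members and all coding genes were closer. Of the members' 51 peaks with 10 tags or more in replicate 1, CDS took 62.7% (interval 49.0 to 74.7), and of the 116 in replicate 2 it took 67.2% (58.3 to 75.1). Over all named coding genes the same shares were 61.6% and 62.3%, inside both intervals. Member peaks were taller, with 14.6% and 29.7% of them at 10 tags or more against 3.22% and 10.0% over all named coding genes, and taller peaks were more often in CDS in both sets.

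The SR genes had a CDS share of 57.1% ± 1.43 and an intron share of 18.6% ± 2.18, and the hnRNP genes had 49.0% ± 3.69 and 29.2% ± 4.30. In replicate 2 the CDS intervals of both classes overlapped, 51.6% (45.4 to 57.7) for hnRNP and 56.1% (47.8 to 64.1) for SR genes, and in replicate 1 they did too, 46.4% (39.9 to 53.0) and 58.1% (49.5 to 66.3). All intervals reflect counting error alone, because PCR copies of a molecule are not independent and peaks of a gene share a transcript.

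Of the members' 349 replicate 1 peaks, 183 were overlapped by a replicate 2 peak (52.4%, interval 47.2 to 57.6), against 19.8% over all named coding genes. The share differed by region. It was 24 of 29 in the 5′ UTR, 113 of 177 in CDS (63.8%, interval 56.5 to 70.6), 12 of 27 in noncoding exons, 28 of 93 in introns (30.1%, interval 21.7 to 40.1) and 6 of 23 in the 3′ UTR. Over all named coding genes the share also differed by region. There it was 39.9% in the 5′ UTR, 45.9% in CDS, 28.3% in noncoding exons, 8.62% in introns and 15.3% in the 3′ UTR. The number of peaks per kb was also higher in the members, and its part in the overlap was not tested. At 10 tags or more the replicate 1 share was 66.7% of 51 peaks (53.0 to 78.0), with 74.4% over all named coding genes. In replicate 2 the order was the opposite, with 73.3% of 116 member peaks overlapped (64.6 to 80.5) and 62.9% over all named coding genes.

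Intron peaks that recurred were mostly at the edges of coding exons. Of the 28 shared intron peaks of members in replicate 1, 24 also held some CDS (85.7%, interval 68.5 to 94.3), against 34.4% of all 93 intron peaks of members. Among member intron peaks that reached 10 tags, CDS was present in 10 of 10 in replicate 1 and 16 of 19 in replicate 2. Over all named coding genes the same was seen, with 82.6% and 79.3% of such tall intron peaks and 63.0% of the shared ones. In HNRNPUL1, for example, an intron peak with 38% of its length in CDS, at chr19:41273950-41274000, had 11 and 25 tags. Under the doubtful identifier of SRSF1, a peak with 14% of its length in CDS, at chr17:58006900-58006950 on the minus strand, had 10 and 26 tags.

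Noncoding exons held a peak in both libraries for 11 members, 5 hnRNP and 6 SR genes, against 3.08% of all coding genes. The share was similar among the 39 other splicing regulators described below, 9 of which had such a peak in both. The 11 members were HNRNPA2B1, HNRNPD, HNRNPH1, PCBP2, PTBP1, SRSF3, SRSF4, SRSF9, TRA2A, TRA2B and SRRM2. For PTBP1, SRSF4, TRA2A and TRA2B these peaks did not overlap between the libraries. The lists do not say which of these exons carry premature stop codons. In SRRM2 the shared noncoding exon peaks were at chr16:2759700-2759750, with 10 and 19 tags, at chr16:2769600-2769750, with 14.7 and 11.5 tags, and at chr16:2769950-2770050, with 9.5 and 12 tags. HNRNPD had such a peak at chr4:82356750-82356800 on the minus strand with 9 and 8 tags, PCBP2 at chr12:53468750-53468800 on the plus strand with 8 and 10, and SRSF9 at chr12:120465600-120465650 on the minus strand with 6 and 12. In SRSF3 the peak at chr6:36597100-36597150 on the plus strand had 4 and 8 tags.

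Other splicing regulators were counted in the same way. Their list of 40 genes holds kinases of SR proteins, nuclear transport and speckle factors and further RNA-binding proteins, and 39 of them were in the reference table. A sense peak in both libraries was found for 38 of these 39, all but MATR3, a peak reaching 10 tags in both for 13, a shared position for 32 and a CDS peak in both for 30. Tall peaks were seen in SFPQ, with up to 21 and 25 tags, and in EWSR1, with up to 17 and 30, both RNA-binding proteins of nuclear transcription and splicing. Among the kinases of SR proteins, CLK1 and CLK4 stayed at 4 and 5 tags. The others reached more, CLK2 7 and 19, CLK3 5 and 14, SRPK1 7 and 11 and SRPK2 8 and 24. As a check of the cell type, 7 of 10 T-lineage marker genes had a sense peak in both libraries, against 44.1% of all coding genes. LAT, CD28 and CD2 did not. CD3D, CD3E, LCK and ZAP70 had a peak of 10 tags or more in both, against 3.76% of all coding genes. Of 10 marker genes of other cell types only KRT8 had a sense peak in both, with 4 and 5 tags.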

How the data were processed

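RNA bound by IGF2BP2 in Jurkat cells was measured by iRIP-seq. Paired reads of 150 bp were aligned by the authors with TopHat2 (build GRCh38 per the labels), and only uniquely mapped reads were kept. Peaks were called for each library separately, with 500 simulations for every gene and a p threshold of 0.05, and those that met an input peak were removed. The deposited height is a signal in tags, whole in 98.6% and 97.2% of peaks, with a lowest value of 4 tags in replicate 1 and 5 in replicate 2. The authors' p-value was used only as a filter. The lists held 145715 and 137934 peaks. Read numbers are not given in the sources used here, so the depth is unknown.

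Each peak was assigned whole to the region that covers most of it. Identifiers were named by position: at least 80% of an identifier's CDS and UTR peaks, or of all its peaks where it had none, lay within 1000 nt of exactly 1 RefSeq gene interval (GRCh38.p14) on its strand, and the lowest number was kept where several qualified. This named 14056 of 20033 coding genes, 38 members among them, from 23740 identifiers, and 404 identifiers lay in several genes. Under 3 member identifiers, 6 and 2 peaks lay outside that margin and were kept. Positions were read as half-open. Members, lists and tests were chosen with earlier results of these data known. All members were counted, those without a peak were named, and the 12 with the highest shared peak (by the lower of both heights) and the member with most peaks in each family were described in full, except that some items are not reported here. The overlap and naming functions were tested on simulated data. The tools were matplotlib 3.10.9, scipy 1.17.1, pandas 2.3.3 and numpy 2.4.6 in Python 3.11.15. Sequences come from the RefSeq start table, from 250 bases before to 50 after each start, which held 37 members.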

Additional observations from a re-analysis of the deposited data

How the results depend on the processing

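At 10 tags or more, 18 members had a peak in both libraries and 15 a shared position, the mean number of peaks was 83.5, the CDS share was 65.0% for members, 61.0% for hnRNP and 69.5% for SR genes, and the intron share was 18.0%. At 5 tags or more, the CDS share was 55.6% for members and 60.5% for SR genes, the intron share was 21.5%, the overlapped share was 63.0%, and the difference in CDS share between the libraries reversed to -4.79 points (p = 0.248, two-sided Fisher's exact test). At a p-value under 0.001, the mean number of peaks was 181, the CDS share was 59.9% for members, 56.6% for hnRNP and 65.1% for SR genes, and the intron share was 17.8%. With region shares added up by length, the CDS share was 54.2% for members and 58.6% for SR genes, and the intron share was 23.1%. Counted by position, the shares were 50.04% CDS and 27.8% intron. A minimum of 15 tags in both libraries left 9 members. The overlapped share was 60.2% for exonic peaks, 60.7% when touching peaks counted and 46.3% of replicate 2 peaks. Leaving out a library gave 18 to 30 members at 10 tags or more, the 30 being all those counted in replicate 2. It also gave 36 members with a peak, 349 to 391 peaks and an intron share of 24.0% to 26.6%. The CDS share was then 50.7% to 53.2% for members, 46.4% to 51.6% for hnRNP and 56.1% to 58.1% for SR genes. Of 80 values under alternatives, 53 stayed within the spread or within 1.5 times the count, 26 moved and 1 reversed, and the cause was not tested. Every CDS or intron share with a library left out was bound to be among the 53. Either of 2 libraries always lies within 1 SD of their mean. The 9 values computed without the identifier named SRSF1, a choice made after the data were seen, were among the 53. CDS peaks per kb of coding sequence and motifs inside peaks were not run, since no coding lengths or genome sequence were used. No paired analysis was possible because the inputs that share replicate numbers with the iRIP libraries were not analysed here.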

Other observations

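Antisense peaks, which were left out of the counts above, were listed under members too. SRRM2 had 6 in replicate 1 and 9 in replicate 2, the most of any member. HNRNPU had 1 and 4, and HNRNPR and PTBP3 had 3 and 2 each. HNRNPUL2 had none and 2, and SYNCRIP had 2 in each library, which made SYNCRIP the only member without a sense peak under its own identifier to have an antisense peak in both.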
